A study of Mus musculus with 6 samples.

Results

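The 37 genes described here encode proteins that build the mitotic spindle, guard it through the spindle checkpoint or sit at the centromere. They were chosen by name, as a list of gene symbols that includes Sgo1, and all 37 were found among the 38087 genes of the deposited table, in which Sgo1 carries its older symbol Sgol1. RNA was sequenced from the brains of 3 wild-type (WT) and 3 Sgo1-/+ mice, with 1 library per mouse. All 6 mice had a C57BL/6 background, received no treatment and were 24 months old, and the tissue was cerebrum with cortex and hippocampus, from which the dissection left out olfactory bulb, cerebellum and medulla. The Sgo1-/+ mice were haploinsufficient for Shugoshin-1, and in the study they served as a model of chromosome missegregation, which is the reason for looking at the other genes of mitosis. Of the WT mice, replicate 1 was male, as was replicate 2 of the Sgo1-/+ mice, and the remaining 4 mice were female. Run 258 held the libraries of WT and run 259 those of Sgo1-/+, and the effects of run and genotype cannot be told apart. The mice were survivors of an aging cohort.

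In mitosis, checkpoint proteins at unattached kinetochores hold back Cdc20 and the anaphase-promoting complex until every chromosome is bound by the spindle. The complex then marks securin and cyclin B for destruction, separase cuts cohesin, and sister chromatids part, while Shugoshin-1 shields cohesin at centromeres until that moment. Most of these genes are transcribed mainly in G2 and M phase, and neurons of the adult brain do not divide, so that in brain such transcripts are usually sought in neural progenitors, oligodendrocyte precursors, microglia and endothelium. In RNA from whole tissue, fewer cells of a type and less RNA per cell cannot be told apart.

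Each library held between 11123917 and 12505561 estimated counts. Values below are normalized counts, obtained by scaling the estimated counts of each library to the mean effective library size after TMM normalization. WT replicate 1 stood apart from the other libraries, with a mean correlation of 0.932 across genes against 0.964 to 0.968 for the others. Its summed level was 19645 normalized counts for 10 cerebellar granule cell markers against 1404 to 2593 in the other libraries, 45016 against 13364 to 17259 for 10 Purkinje cell markers, and 6531 against 1429 to 2296 for 14 brain stem markers, although cerebellum and medulla were left out of the dissection. More than 3 counts in every library were found for 7 of these granule cell markers, all 10 Purkinje cell markers and only 2 of the brain stem markers. The granule cell and Purkinje cell lists share Cbln1, and whether each marker is limited to its region was not tested. All 7 neuron markers found in the table were above 3 counts in every library, and their summed level lay between 76322 and 101519. A positive log2 fold change stands for a higher value in Sgo1-/+ than in WT, and is given with the standard error (SE) or the 95% interval of the fit.

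None of the 37 mitotic genes differed between Sgo1-/+ and WT brain after adjustment for all genes tested, and most of them were sparse in both. The low-count filter kept 29 of them and removed Sgol1, Bub1, Bub1b, Ttk, Cdk1, Ccnb1, Ccnb2 and Spc25. In all, 27 genes had more than 3 counts in every library, and 10 were at 3 counts or fewer in at least 1 library. Only 15 had more than 10 counts in every library. Because a library with no count for a gene may still hold up to 3 counts, values at or under 3 have no order among themselves, and this limit covers counting error only.

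Of the 29 genes that were tested, 15 had a higher and 14 a lower fitted value in Sgo1-/+, and the fitted log2 fold changes ran from -0.69 for Birc5 to 1.28 for Cenpa. Their median was 0.01, beside -0.00 over all 16337 genes tested. None had an adjusted p under 0.05 in the quasi-likelihood test of edgeR (Benjamini-Hochberg adjustment, adjusted p of 0.9999 for each), and the same test called 0% of all genes. Without adjustment 1 of the 29, Cenpa, had a p under 0.05, beside 2.04% of all genes tested and 0.808% that were higher in Sgo1-/+. DESeq2, edgeR's likelihood ratio test and limma called none of the 29 either, while over all genes they called 3, 2 and 0. For 11 of the 29 the 95% interval excluded a 2-fold change in either direction, whereas for 12 it still held a 2-fold rise and for 11 a 2-fold fall. In 7 of the 29 the female libraries did not overlap and the male libraries lay in the opposite order, beside 19.4% of all genes tested.

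**Figure D1:**
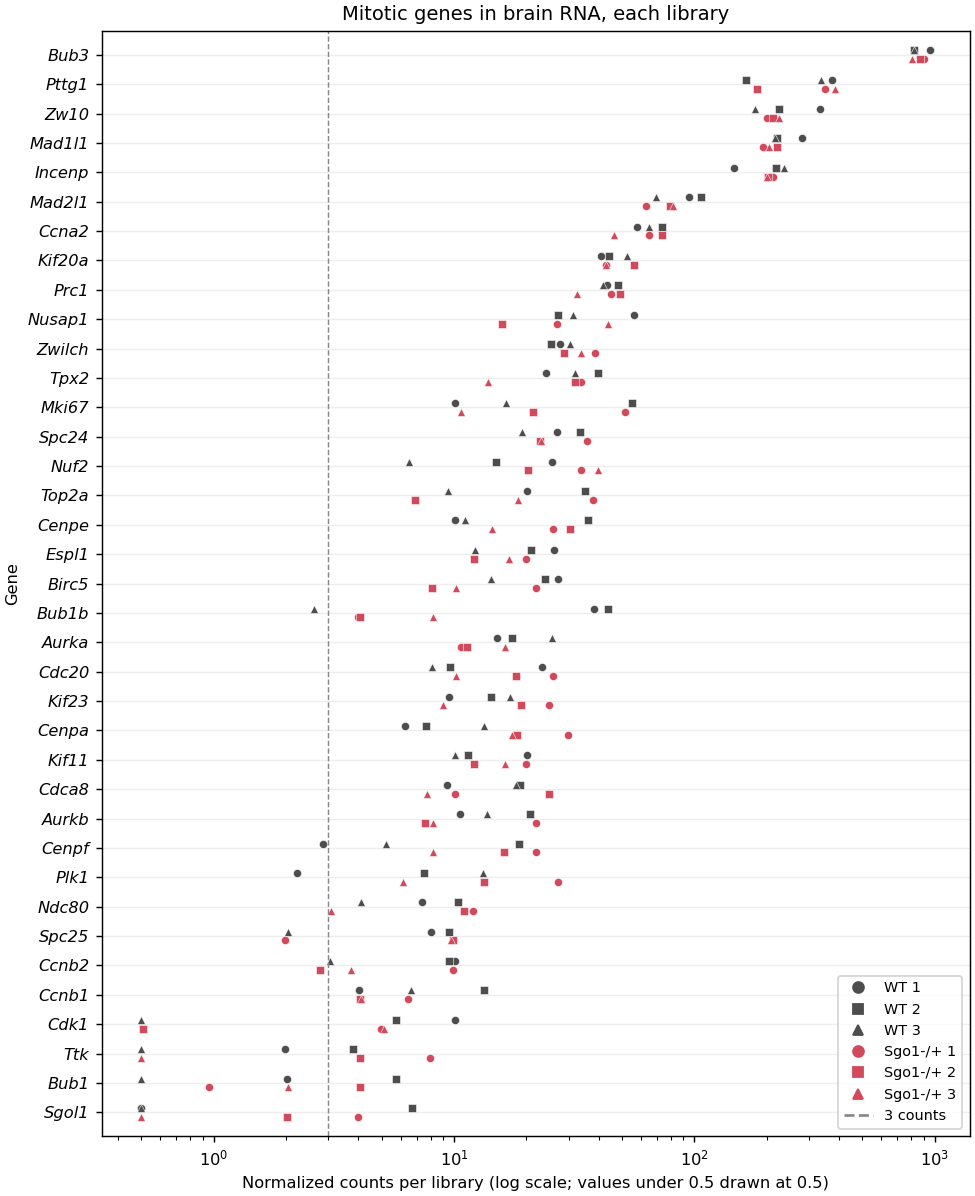
Normalized counts (log scale) of the 37 genes in each of the 6 libraries, with WT in gray and Sgo1-/+ in red, the marker shape giving the replicate and the dashed line standing at 3 counts. Bub3 lies between 802 and 958 in every library, whereas most genes fall under 40 and scatter several-fold within a genotype.

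**Figure D2:**
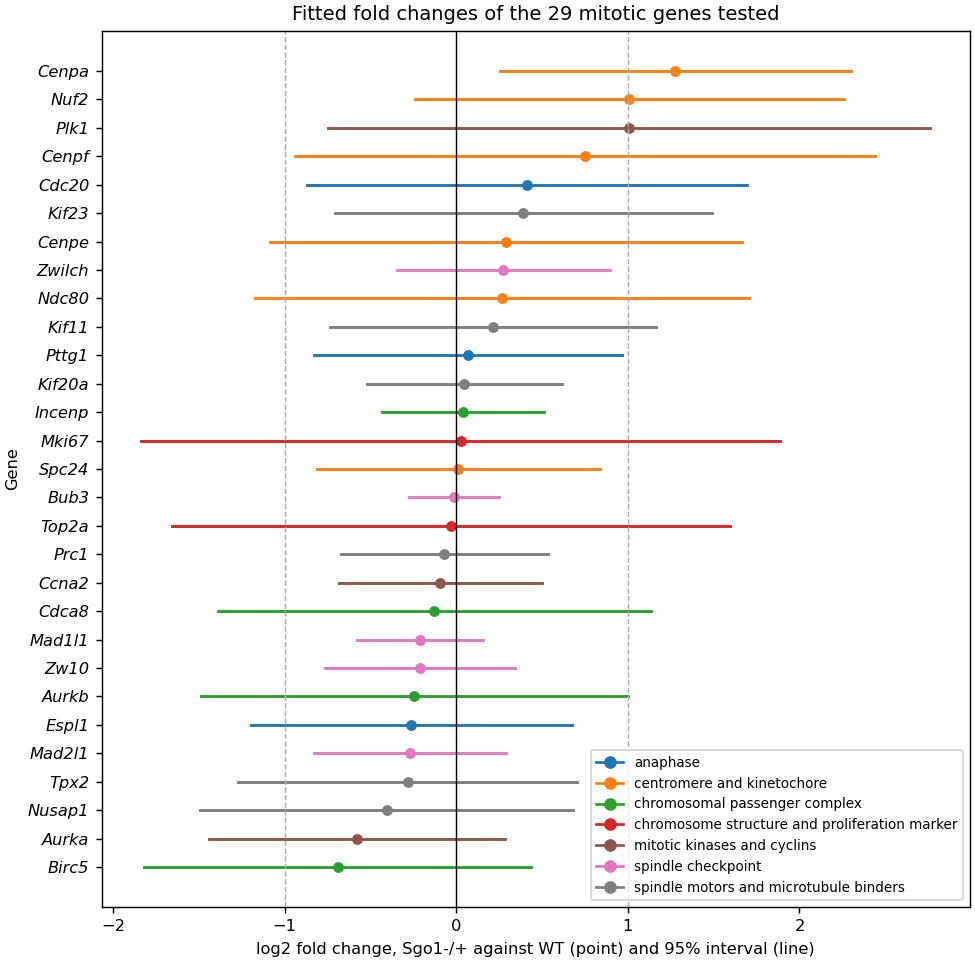
Fitted log2 fold change (point) and 95% interval (line) of each of the 29 tested genes, colored by role, with dashed lines at 2-fold changes. The interval of Cenpa, from 0.25 to 2.30, is the only 1 of the 29 that leaves out 0.

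Sgol1, the gene reduced in these mice, lies at chr17:53674786-53689333 (mm10, minus strand) and was almost absent from brain RNA. The 3 WT libraries held 0, 7 and 0 estimated counts of it, and the 3 Sgo1-/+ libraries held 4, 2 and 0, in replicate order here and below. The genotypes overlapped and both contained a library without a count (exact two-sided permutation test, p = 1, n = 3 per group). With 4 of 6 libraries at 3 counts or fewer, the transcript could not serve to check the genotype labels, and a loss of Sgo1 transcript was not detectable at this depth.

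The spindle checkpoint was represented by 8 genes, of which 5 were tested, with 1 higher and 4 lower fitted values and no call. Bub3, which binds Bub1 and BubR1 and brings them to kinetochores, was the steadiest of them. Its normalized counts were 958, 822 and 818 in WT and 905, 867 and 802 in Sgo1-/+. The genotypes overlapped, with the highest library in WT and the lowest in Sgo1-/+, and had means of 866 ± 79.8 and 858 ± 52.02 (SD, n = 3 each, exact permutation p = 0.8). The fitted log2 fold change of -0.01 had a 95% interval from -0.28 to 0.25, which corresponds to between 0.826 and 1.19 times the WT level.

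Zw10, a subunit of the complex that brings dynein and Mad1 to kinetochores and that also acts in membrane traffic, had 333, 225 and 179 normalized counts in WT and 201, 212 and 225 in Sgo1-/+. The highest value was that of WT replicate 1, and the log2 fold change of -0.21 (95% interval -0.77 to 0.34) became 0.07 without that library. Mad1l1, the kinetochore anchor of Mad2, had 281, 220 and 216 in WT and 194, 221 and 205 in Sgo1-/+, again with its highest value in WT replicate 1. Its log2 fold change of -0.21 (95% interval -0.58 to 0.16) became -0.08 without it. For Mad2l1, the inhibitor of Cdc20, the values were 95.04, 107 and 69.0 in WT and 63.2, 79.5 and 81.9 in Sgo1-/+, and the means of 90.4 ± 19.5 and 74.9 ± 10.2 (SD, n = 3 each) differed by less than the spread between WT libraries (exact permutation p = 0.3). Zwilch, a partner of Zw10, was the only tested checkpoint gene with a higher fitted value in Sgo1-/+, at 27.5, 25.3 and 30.5 in WT and 38.7, 28.7 and 33.9 in Sgo1-/+ (log2 fold change 0.28, 95% interval -0.35 to 0.90). WT replicate 3 lay above Sgo1-/+ replicate 2, and the exons of Zwilch overlap those of Lctl on the opposite strand over 5.93% of their length.

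Bub1b, which encodes BubR1 and lies at chr2:118598211-118641591, was the checkpoint gene with the most uneven values. It had 38.3, 43.8 and 2.63 normalized counts in WT and 3.97, 4.05 and 8.19 in Sgo1-/+. WT replicates 1 and 2 were high, whereas WT replicate 3, at 3 counts or fewer, was as low as the Sgo1-/+ libraries, so that the means of 28.2 ± 22.3 and 5.40 ± 2.41 (SD, n = 3 each) did not separate the genotypes (exact permutation p = 0.4). The filter removed the gene. Fitted with the filter off, it had a log2 fold change of -2.38 (SE 0.84), with an adjusted p of 0.950 in the quasi-likelihood test of edgeR (Benjamini-Hochberg adjustment over 26061 genes) and an unadjusted p of 0.0206. The kinases Bub1 and Ttk, which start checkpoint signaling, never exceeded 5.71 and 7.95 normalized counts, and were at 3 counts or fewer in 4 and 3 of the 6 libraries.

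The chromosomal passenger complex corrects faulty attachments between kinetochores and microtubules, and all 4 of its genes were tested, with 1 higher and 3 lower fitted values. Incenp, its scaffold, had 146, 218 and 236 normalized counts in WT and 212, 203 and 200 in Sgo1-/+. The Sgo1-/+ libraries lay close together inside the WT range, and the fitted log2 fold change was 0.04 (95% interval -0.43 to 0.51), or -0.14 without WT replicate 1. Aurkb, its kinase, had 10.6, 20.8 and 13.7 in WT and 21.9, 7.60 and 8.19 in Sgo1-/+, a spread that covers both genotypes. Cdca8, which encodes Borealin, had 9.34, 18.8 and 18.1 in WT and 10.1, 24.8 and 7.69 in Sgo1-/+, and both its extremes were Sgo1-/+ libraries.

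Birc5, which encodes Survivin, the subunit that reads phosphorylated histone H3 at centromeres, had the lowest fold change of the tested genes. Its values were 27.2, 23.8 and 14.2 in WT and 21.9, 8.11 and 10.2 in Sgo1-/+. Sgo1-/+ replicate 1 lay within the WT range, and the log2 fold change was -0.69 with an SE of 0.48 (exact permutation p = 0.2 on 21.7 ± 6.74 against 13.4 ± 7.402, SD, n = 3 each). Without Sgo1-/+ replicate 1 it was -1.23, with an unadjusted p of 0.0410 in the edgeR fit and an adjusted p of 0.9998, whereas it was -0.44 without Sgo1-/+ replicate 2 and -0.53 without Sgo1-/+ replicate 3.

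Of the 6 mitotic kinases and cyclins, 3 passed the filter. Ccna2, the cyclin that acts from S phase into mitosis, had 57.9, 73.6 and 64.8 normalized counts in WT and 64.8, 73.1 and 46.4 in Sgo1-/+, with a log2 fold change of -0.09 (95% interval -0.68 to 0.50). Its exons share 12.5% of their length with Exosc9 on the opposite strand, a gene with 349 to 417 estimated counts, and the sources used here do not say whether the counting used strand. Aurka, the centrosomal kinase, had 15.1, 17.5 and 25.5 in WT and 10.6, 11.4 and 16.4 in Sgo1-/+. Only Sgo1-/+ replicate 3 reached into the WT range, and the log2 fold change was -0.58 with an SE of 0.36 (exact permutation p = 0.2), or -0.33 without WT replicate 3.

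Plk1, which drives mitotic entry and removes cohesin from chromosome arms, had 2.23, 7.48 and 13.2 in WT and 27.0, 13.4 and 6.14 in Sgo1-/+. Its fitted log2 fold change of 1.01 (95% interval -0.75 to 2.76) rested largely on the single high value of Sgo1-/+ replicate 1 and was 0.34 without that library. The genotypes overlapped. Cdk1, the kinase of mitosis, and its partners Ccnb1 and Ccnb2 were removed by the filter and never exceeded 10.1, 13.3 and 10.1 normalized counts. Cdk1 was at 3 counts or fewer in 1 WT and 1 Sgo1-/+ library. Ccnb2 has an annotated pseudogene with which it may share reads.

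The anaphase genes showed 1 abundant and 2 sparse members, all tested. Pttg1, which encodes securin, the inhibitor of separase, lies at chr11:43420250-43426251 and had 374, 165 and 335 normalized counts in WT and 349, 183 and 385 in Sgo1-/+. Replicate 2 of each genotype was low and the other 4 libraries were high, so the spread within each genotype was far larger than the gap between means of 292 ± 112 and 306 ± 108 (SD, n = 3 each, exact permutation p = 0.7). The 2 low libraries came from a female and a male. The log2 fold change was 0.07 (95% interval -0.83 to 0.97). Cdc20, the activator of the anaphase-promoting complex, had 23.2, 9.62 and 8.12 in WT and 25.9, 18.1 and 10.2 in Sgo1-/+, with replicate 1 highest in both genotypes. Espl1, which encodes separase, had 26.2, 20.9 and 12.2 in WT and 19.96, 12.2 and 16.9 in Sgo1-/+, and the genotypes overlapped.

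The proliferation markers did not separate the genotypes. Mki67, which encodes the Ki-67 coat of mitotic chromosomes and lies at chr7:135689788-135716379, had 10.1, 55.2 and 16.5 normalized counts in WT and 51.6, 21.3 and 10.7 in Sgo1-/+. A library of each genotype was above 50 and the other 4 were at or below 21.3. The means of 27.3 ± 24.4 and 27.9 ± 21.3 (SD, n = 3 each) gave an exact permutation p of 0.9, and the fitted log2 fold change of 0.03 had a 95% interval from -1.83 to 1.88. Top2a, the topoisomerase that untangles sister chromatids, had 20.1, 35.2 and 9.47 in WT and 38.1, 6.89 and 18.4 in Sgo1-/+. Its highest values fell in the same libraries as those of Mki67, WT replicate 2 and Sgo1-/+ replicate 1, and its log2 fold change was -0.03 (95% interval -1.66 to 1.596). For both genes, neither a 2-fold rise nor a 2-fold fall could be left out at this depth and this number of mice.

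The 6 spindle motors and microtubule binders were all tested, and 3 had a higher and 3 a lower fitted value. Kif20a, a kinesin of the central spindle, had 41.0, 44.0 and 52.2 normalized counts in WT and 43.1, 56.0 and 42.8 in Sgo1-/+. Prc1, which bundles the central spindle, had 43.3, 48.1 and 41.7 in WT and 45.0, 49.2 and 32.6 in Sgo1-/+. Both differed little among libraries, but their exons overlap genes of the opposite strand, over 29.3% of their length for Kif20a with Cdc23 (451 to 607 estimated counts) and over 11.1% for Prc1 with Rccd1. Kif11, the motor that separates the spindle poles, had 20.1, 11.4 and 10.1 in WT and 19.9, 12.2 and 16.4 in Sgo1-/+. Kif23, a subunit of centralspindlin, had 9.57, 14.3 and 17.1 in WT and 24.9, 19.0 and 8.97 in Sgo1-/+, and Sgo1-/+ held both its highest and its lowest library. Nusap1, which bundles microtubules near chromosomes, had 56.0, 27.2 and 31.2 in WT and 26.8, 15.8 and 43.8 in Sgo1-/+. Tpx2, the activator of Aurora A, had 24.2, 39.8 and 31.8 in WT and 33.8, 31.9 and 13.8 in Sgo1-/+. All 6 overlapped between the genotypes, and their log2 fold changes lay between -0.41 for Nusap1 and 0.39 for Kif23.

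The centromere and kinetochore genes leaned toward Sgo1-/+ without an adjusted call. The 6 that were tested had log2 fold changes from 0.01 (SE 0.35) for Spc24 to 1.28 (SE 0.43) for Cenpa, with a median of 0.52. Only the 95% interval of Cenpa left out 0. All 6 had a higher fitted value in Sgo1-/+, beside 49.8% of all genes tested. This direction was read after the values were seen, and it depended on single libraries. It held for 4 of 7 genes without WT replicate 3, for 5 of 7 without Sgo1-/+ replicate 1 and for 6 of 7 without WT replicate 1. The median fell to 0.02 without WT replicate 3 and was 1.00 without WT replicate 2. With the filter off it was 0.29 over 7 genes, and only 2 genes had at least 10 counts in every library.

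Cenpa, which encodes the histone H3 variant that marks the centromere, lies at chr5:30666777-30674827 and shares no exon with another annotated gene. It had 6.28, 7.62 and 13.3 normalized counts in WT and 29.8, 18.3 and 17.4 in Sgo1-/+. All Sgo1-/+ libraries were above all WT libraries, which made Cenpa the only 1 of the 29 tested genes without overlap, beside 6.85% of all genes tested and 3.28% with Sgo1-/+ above WT. The means were 9.06 ± 3.72 and 21.8 ± 6.92 (SD, n = 3 each, exact two-sided permutation p = 0.1, the smallest that 20 groupings allow). The fitted log2 fold change was 1.28 (SE 0.43, 95% interval 0.25 to 2.30), with an unadjusted p of 0.0215 and an adjusted p of 0.9999 in the quasi-likelihood test of edgeR (Benjamini-Hochberg adjustment). Leaving out each library in turn gave 0.99 to 1.66, and the unadjusted p rose to 0.0636 without WT replicate 1, 0.0693 without WT replicate 2 and 0.0879 without Sgo1-/+ replicate 1. The gene was higher in Sgo1-/+ in females and in males, by 1.17 and 1.54 on the log2 scale of mean ratios.

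Nuf2, a subunit of the Ndc80 complex that grips microtubules, had 25.7, 14.9 and 6.52 in WT and 33.6, 20.3 and 39.7 in Sgo1-/+. The groups overlapped through WT replicate 1 and Sgo1-/+ replicate 2. Its log2 fold change of 1.01 (95% interval -0.24 to 2.26) was 0.63 without WT replicate 3 and 1.54 without WT replicate 1, where the unadjusted p was 0.0222. Cenpf, a large coat protein of the outer kinetochore, had 2.86, 18.7 and 5.20 in WT and 22.0, 16.2 and 8.19 in Sgo1-/+. Cenpe, the kinetochore kinesin, had 10.1, 36.2 and 11.2 in WT and 25.8, 30.4 and 14.4 in Sgo1-/+. In both, WT replicate 2 lay among or above the Sgo1-/+ libraries. Ndc80 itself ranged from 3.07 to 11.98, Spc24 from 19.1 to 35.8 and Spc25, which the filter removed, from 1.99 to 9.92, each with overlapping genotypes.

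Markers of cells that could carry these transcripts, and of the olfactory bulb that the dissection left out, also varied between the groups, and their part in the values above was not tested. The summed level of 8 microglia markers was 4516 to 5381 normalized counts in WT and 5490 to 6493 in Sgo1-/+, with all 8 above 3 counts in every library, 8 of 8 fitted higher and none with an adjusted p under 0.05. For 8 oligodendrocyte precursor markers the sums were 3183 to 3808 and 3787 to 4707, with 7 of 8 fitted higher. For 14 markers of neuroblasts and new neurons they ran the other way, from 3407 to 4980 in WT and from 2111 to 3086 in Sgo1-/+. Of these markers 11 of 14 were fitted lower, and none had an adjusted p under 0.05. Their highest sums were those of WT replicates 1 and 2, at 4980 and 4944. This list shares Neurod1 with the granule cell list and Eomes with the olfactory bulb list, so the sums are not independent. For 10 olfactory bulb markers the sums were 1817 to 6655 and 2463 to 4617. For ependyma the sums were 166 to 413 and 170 to 492, overlapping between the groups.

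By their means per kilobase of merged exons, the 37 genes fell into 3 tiers. Pttg1 led with 149 ± 49.2 normalized counts per kilobase and Bub3 followed with 123 ± 8.62 (SD over 6 libraries). Their ranges overlapped, and with the longest annotated transcript in place of merged exons Bub3 came first. Below a gap in the means lay Mad1l1 at 61.1 ± 8.31, Zw10 at 59.9 ± 14.0 and Incenp at 46.8 ± 7.02. Below a further gap came Ccna2 at 15.5 ± 2.496 and all the rest. The upper tiers were not apart in every library, since Zw10 reached 87.0 in its highest library and Pttg1 fell to 82.4 in its lowest. Of the 36 pairs of neighbors in this order, 34 overlapped in their ranges over libraries. The 2 that did not were Bub3 above Mad1l1 and Incenp above Ccna2. Common markers of dividing cells stood low, with Mki67 at 2.74 ± 2.04, Top2a at 2.37 ± 1.43 and Cdk1 at 0.891 ± 0.754. At the low end stood Ttk at 0.603 ± 0.612, Bub1 at 0.566 ± 0.479 and Sgol1 at 0.554 ± 0.720, which were at 3 counts or fewer in 3 or 4 libraries and have no order among themselves. The genes Bub3, Pttg1, Zw10, Mad1l1 and Incenp, each above 100 normalized counts, made up 73.0% of the summed counts of all 37.

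**Figure D3:**
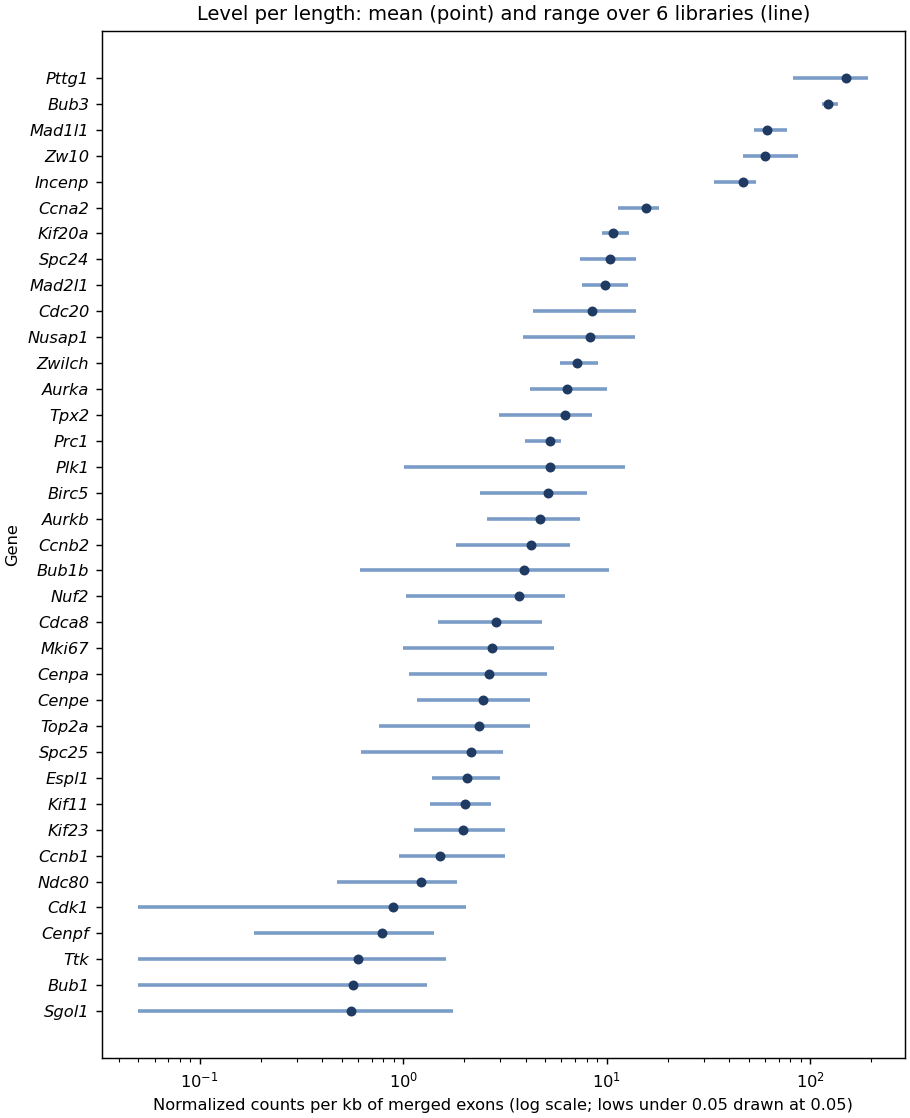
Mean normalized counts per kilobase of merged exons (point, log scale) and range over the 6 libraries (line) for the 37 genes. The means of Pttg1 and Bub3 stand above those of Mad1l1, Zw10 and Incenp, although the ranges of Pttg1 and Zw10 overlap. The remaining 32 genes have means from 15.5 down to 0.554, with ranges that overlap between neighbors.

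The sparsest genes scattered most among libraries, although single genes departed from this, with a coefficient of variation of 33.0% for the abundant Pttg1 and 15.8% for the sparse Zwilch. The 5 genes above 100 normalized counts had a median of 15.0% over the 6 libraries, against 6.60% that counting alone would give. The 4 from 40 to 100 had 14.9%, against 13.6% from counting. The 20 tested genes under 40 had 45.5%, against 24.4%. These libraries are separate mice of both genotypes and sexes. The median spread was above counting error in each class. In percentage points the excess was largest in the genes under 40, but relative to counting error it was largest in those above 100. The source of the spread was not tested. Summed over all 28 genes under 40, the libraries held 435, 547 and 325 normalized counts in WT and 570, 382 and 360 in Sgo1-/+. WT replicate 2 and Sgo1-/+ replicate 1 were thus the libraries with the most sparse mitotic RNA, 1 of each genotype.

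The same pair of libraries held the highest values of Aurkb, Cenpf, Mki67, Spc24, Top2a and Tpx2. This was 20.7% of the 29 tested genes, beside 8.47% of all genes tested, and the pair was chosen after the values were seen. Sgo1-/+ replicate 1 alone was the highest library for 10 of the 20 tested genes under 40, and it was the highest for 12.3% of all genes tested. That library also had the highest summed level of the red blood cell markers found in the table, 9516 normalized counts against 1491 to 3571 in the others, and of 8 endothelial markers, 3659 against 2702 to 3023. The part of either in the mitotic values was not tested.

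**Figure D4:**
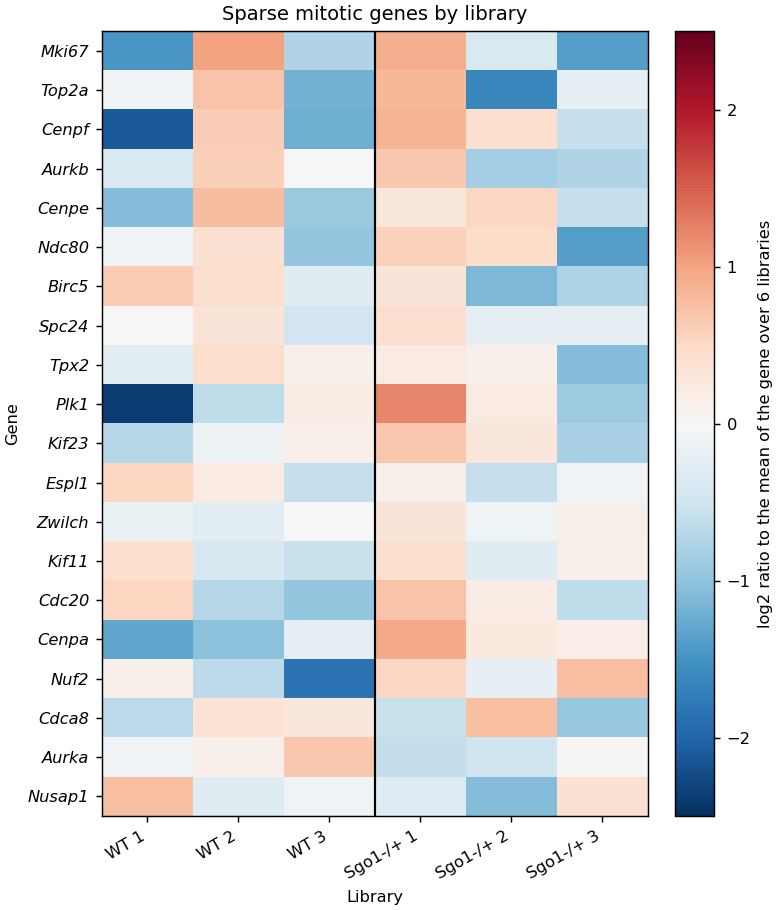
Log2 ratio of each library to the mean of the gene for the 20 tested genes under 40 normalized counts, with WT left and Sgo1-/+ right of the black line and red standing for values above the mean. Genes are ordered by the sum of WT replicate 2 and Sgo1-/+ replicate 1, an order chosen after the values were seen, and Mki67, Top2a and Cenpf at the top are red in both.

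The letters of promoters were examined for all genes of the list for which a promoter was given. RefSeq promoters (GRCm38.p6, 250 bases before to 50 bases after the start) were given for 30 of the 37 genes and for 27025 genes in all. None was given for Ccna2, Kif20a, Tpx2, Incenp, Spc24, Aurkb and Zwilch. Of the genes named above as highest in the same pair of libraries, Aurkb, Spc24 and Tpx2 were therefore not examined. The CHR element, through which the DREAM complex, B-Myb and FoxM1 act on cell cycle genes, was searched as TTTGAA on either strand. It stood in 20 of 30 promoters (66.7%), beside 20.2% of all genes. In the 250 bases before the start alone it stood in 10 (33.3%), beside 18.3%. The CCAAT box, bound by NF-Y, was searched as CCAAT on either strand and stood in 22 of 30 (73.3%), beside 41.1% of all genes. The letters TTTCGCGC or TTTGGCGC, as bound by E2F factors, stood only in the promoter of Cdk1 (3.33%, beside 0.929% of all genes). None of these motifs is contained in another. The matches describe letters and do not show binding.

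The stretches below are shown for Sgol1 as the reduced gene, Top2a and Mki67 as markers high in the same libraries, Bub3 as the steady gene and Cenpa as the gene without overlap. All are from RefSeq on GRCm38.p6, 5′ to 3′ on the strand of the gene, with CHR and CCAAT letters on either strand in capitals. Those of the first 4 genes hold the 250 bases before the start, at chr17:53689316-53689565 (minus strand) for Sgol1, chr11:99024190-99024439 (minus strand) for Top2a, chr7:135716380-135716629 (minus strand) for Mki67 and chr7:131560120-131560369 (plus strand) for Bub3, whose start is the more upstream of those given. That of Cenpa holds the 28 bases at chr5:30666777-30666804 (plus strand) that span both of its CCAAT boxes and begin at the gene start of the annotation.
Sgol1: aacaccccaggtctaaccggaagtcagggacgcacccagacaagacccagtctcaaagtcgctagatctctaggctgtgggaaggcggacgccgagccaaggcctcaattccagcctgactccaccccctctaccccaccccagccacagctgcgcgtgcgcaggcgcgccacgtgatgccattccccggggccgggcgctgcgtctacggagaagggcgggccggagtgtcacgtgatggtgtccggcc
Top2a: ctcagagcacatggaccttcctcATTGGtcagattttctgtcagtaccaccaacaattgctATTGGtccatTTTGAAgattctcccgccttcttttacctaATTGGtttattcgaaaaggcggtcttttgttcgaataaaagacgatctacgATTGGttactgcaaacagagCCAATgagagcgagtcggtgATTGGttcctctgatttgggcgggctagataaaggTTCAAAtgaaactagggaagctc
Mki67: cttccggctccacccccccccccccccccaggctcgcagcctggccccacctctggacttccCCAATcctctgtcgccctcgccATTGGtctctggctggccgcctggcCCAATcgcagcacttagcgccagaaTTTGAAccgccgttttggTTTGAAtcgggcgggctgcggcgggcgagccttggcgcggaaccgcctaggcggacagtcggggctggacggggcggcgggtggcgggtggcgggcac
Bub3: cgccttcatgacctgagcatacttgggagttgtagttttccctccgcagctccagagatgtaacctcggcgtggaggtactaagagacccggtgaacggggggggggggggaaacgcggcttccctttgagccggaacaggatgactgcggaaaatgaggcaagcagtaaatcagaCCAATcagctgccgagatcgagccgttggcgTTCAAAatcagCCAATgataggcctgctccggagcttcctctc
Cenpa: ATTGGcttcagacctttattctcATTGG

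The Sgol1 stretch held neither motif. That of Top2a held 2 CHR and 6 CCAAT matches, that of Mki67 2 and 3, and that of Bub3 1 and 2, although Bub3 was the most even of the genes and Top2a and Mki67 were among the most uneven. Cenpa had its CHR match 16 to 21 bases after the start and Sgol1 a CCAAT match 2 to 6 bases after it, both outside the stretches shown.

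**Figure D5:**
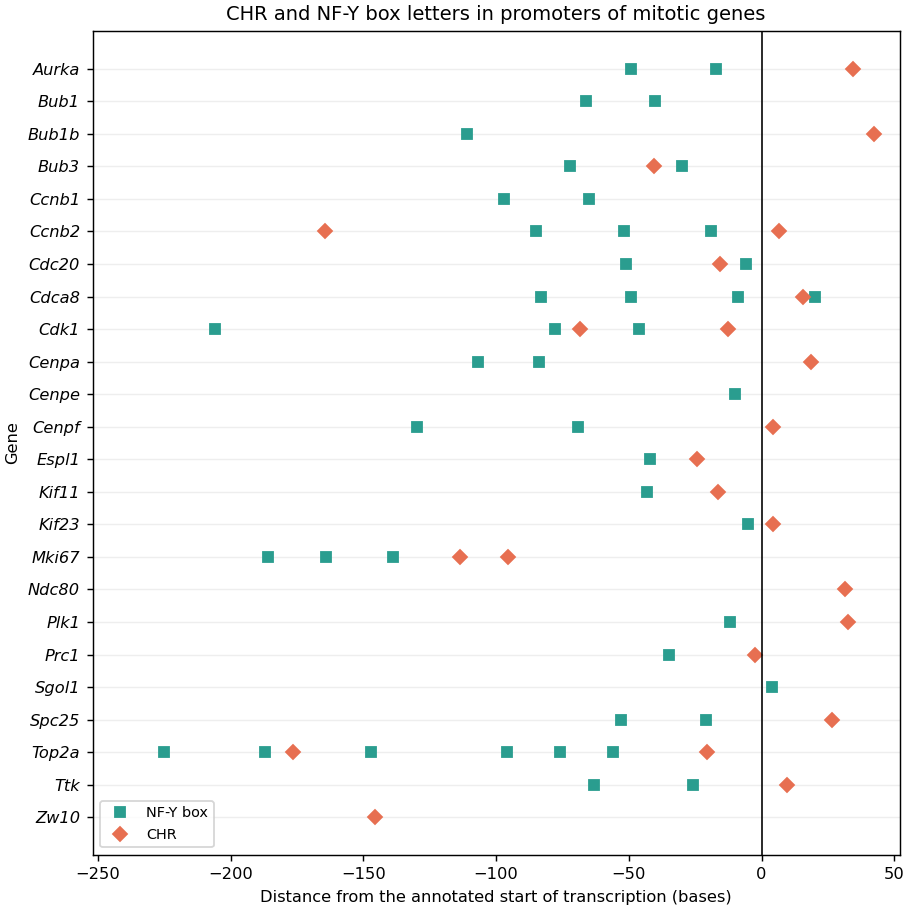
Positions of CHR letters (diamonds) and CCAAT boxes (NF-Y boxes, squares) relative to the annotated start of transcription, in bases, for the genes with at least 1 match, with the most upstream promoter drawn where several were given. CCAAT boxes lie mostly before the start, and CHR letters lie on both sides of it.

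The other genes of the mitotic pathway showed no call. Of 107 genes in 6 lists, 106 were found in the table and 86 were tested, and none had an adjusted or unadjusted p under 0.05 in edgeR's quasi-likelihood test. In all, 36 had a higher and 50 a lower fitted value, with a median log2 fold change of -0.04 and a range from -0.75 to 0.97, and 6 of the 86 did not overlap between the genotypes, a share close to the 6.85% of all genes tested. In the list of the inner kinetochore and centromere chromatin, which neighbors Cenpa, 6 of 15 tested genes had a higher fitted value, and the extremes were Cenpi at 0.42 and Cenpp at -0.73. In the outer kinetochore list 3 of 8 did, between Mis12 at 0.23 and Pmf1 at -0.63. The anaphase-promoting complex, all 17 genes of which were tested, had 7 higher, between Anapc16 at 0.22 and Anapc4 at -0.20. The other mitotic kinesins and cytokinesis factors had 7 of 15 higher, between Kif4 at 0.55 and Kif20b at -0.54.

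Mitotic entry factors had 5 of 14 higher, between the kinase Melk at 0.53 and the centrosomal kinase Nek2 at -0.75. The DNA replication list, which stands for S phase, had 8 of 17 higher. Its extremes were Rrm2, a subunit of ribonucleotide reductase, at 0.97, and the thymidine kinase Tk1 at -0.62. Rrm2 had 5.56, 15.2 and 6.09 normalized counts in WT and 27.8, 16.2 and 10.2 in Sgo1-/+. Sgo1-/+ replicate 1 was again the highest library, and WT replicate 2 lay between the Sgo1-/+ values.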

How the data were processed

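Brain RNA of 3 WT and 3 Sgo1-/+ mice was prepared with the TruSeq V2 kit and sequenced on an Illumina MiSeq as paired reads. The authors aligned the reads to mm10 in Strand NGS 2.1 and deposited an estimated count per Ensembl gene and library, of which 46.3 to 47.6% were not whole numbers (tolerance 0.001). The submitters' processing notes also name BWA and edgeR. The Ensembl release and the use of strand in counting are not given in the sources used here. The authors also deposited log2 normalized values (DESeq, with the median of each gene subtracted) and their own comparison of the genotypes as a log2 difference, a signed fold score and a ratio without direction. None of these was used, except that the deposited log2 difference matched the group means of the sample columns to within 2.9e-07, which fixed the genotype of each column, and the number in the column name gave the replicate. Xist and Ddx3y counts matched the labelled sex in all 6 libraries.

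Counts were rounded and fitted with edgeR 4.0.16 (TMM, default filter, quasi-likelihood test, Benjamini-Hochberg adjustment over 16337 genes, no covariate). The quasi-likelihood, likelihood ratio, DESeq2 and limma fits were first tried on simulated data. Their spread was taken from the libraries other than WT replicate 1, with a coefficient of variation between mice of 17.4%, against 25.9% for all 6. The simulated data were thus less noisy than those fitted, and changes were planted in abundant genes only. For single genes an exact two-sided permutation test over the 20 groupings was used, whose smallest p is 0.1. Exon lengths came from GENCODE M21, which holds 36308 of the 38087 genes, and promoters from RefSeq. The named genes were all 37 of the list, the highest and lowest gene of each pathway list, and summed markers of 11 cell types or regions. The genes and lists were chosen with earlier results of these data known. Alternatives were DESeq2 1.42.0, limma 3.58.1 on log2 of DESeq-normalized counts plus 1, edgeR's likelihood ratio test, other size factors and filters, a term for sex, a block for the replicate number and each library left out. P-values measure the spread between these 6 mice.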

Additional observations from a re-analysis of the deposited data

Results flagged for a closer look

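For 8 genes all female Sgo1-/+ libraries lay on one side of all female WT libraries (2 against 2) while the male Sgo1-/+ library lay on the other side of the male WT library (1 against 1). Of these, 7 were among the 29 genes tested, beside 19.4% of all genes tested that showed such opposite order, and the difference between the sexes was not tested. As log2 ratios of the mean normalized counts of Sgo1-/+ over WT, Nuf2 had 1.77 in females and -0.34 in males, Cdc20 had 1.03 and -0.357, Kif11 had 0.748 and -0.728, and Pttg1 had 0.554 and -1.03. In the other direction, Cdca8 had -1.05 in females and 1.41 in males, Ccnb1 had -0.917 and 0.00877, Incenp had -0.14 and 0.477, and Kif20a had -0.165 and 0.449. For Ccnb1, which the filter removed, both male libraries held 4 estimated counts, so that its male value came from the scaling alone. The male WT library was WT replicate 1, which also stood apart from the other libraries.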

How the results depend on the processing

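None of the 37 genes had an adjusted p under 0.05 in any of the 14 alternatives run, and the median log2 fold change over the genes tested stayed between -0.09 and 0.08. Over all genes the number called was 3 with DESeq2, 2 with edgeR's likelihood ratio test and 0 to 1 with each library left out, the 1 being without Sgo1-/+ replicate 2. The number of the mitotic genes with an unadjusted p under 0.05 was 2 with no filter on low counts, 0 with at least 10 counts in every library, 1 to 2 with each library left out (2 without WT replicate 3) and 0 with the replicate number as a block. In that edgeR fit with the block, Cenpa had an unadjusted p of 0.0575. The labels do not say whether the numbers pair the mice. Deviations of same-numbered libraries from their group means correlated by -0.145, 0.00980 and -0.209. With so few libraries per group, and WT replicate 1 apart from the others, these values cannot decide whether mice were paired. At more than 10 counts in every library 15 genes remained, and CHR letters before the start alone gave 10 genes. With each library left out 3 to 6 genes did not overlap, beside 13.0 to 24.0% of all genes tested. Fold changes of single genes were followed across the alternatives for only part of the genes tested. Among these, leaving out libraries changed the sign of the log2 fold change of Bub3 (-0.052 to 0.066), Pttg1 (-0.22 to 0.33), Zw10 (-0.39 to 0.068), Incenp (-0.14 to 0.17), Ccna2 (-0.24 to 0.076), Mki67 (-0.79 to 1.07) and Top2a (-0.75 to 0.52), and the cause was not tested. Of the genes followed, Mad1l1, Mad2l1, Cenpa, Nuf2, Plk1, Birc5 and Aurka kept their direction in every alternative that tested them. Some centromere and kinetochore genes not followed singly also turned lower in Sgo1-/+ without WT replicate 3. At this depth 28 of the 37 genes had under 40 normalized counts.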
